A study of Pyrus pyrifolia with 6 samples.

Results

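Tonoplast intrinsic proteins (TIPs) are the aquaporins of the vacuole membrane, and 5 genes described as TIP-type aquaporins were followed here in pear fruit pulp after boron application. They were taken by name from a fixed list and are 5 of the 7 TIP rows, 5 of the 18 aquaporin rows and 5 of the 4291 genes that the deposited table lists. The fruit was Akibae pear (Pyrus pyrifolia) from a university orchard. One group of fruit received boron and the other was the control, and each group has 3 messenger RNA libraries made from pulp. How much boron was applied, in which form and at what stage, and what the control fruit received, is not given in the sources used here.

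Aquaporins are channel proteins that let water cross a membrane along its osmotic gradient, and TIPs do this at the tonoplast, the membrane around the vacuole. Cells of fleshy fruit pulp are mostly vacuole, which holds their water, sugars and organic acids, so the tonoplast is the main inner surface that water crosses as such a cell fills. Some TIPs also pass small uncharged molecules such as urea, ammonia or hydrogen peroxide. Boron enters plants mainly as boric acid, which is also small and uncharged, and in Arabidopsis a TIP has been tied to tolerance of high boron. The TIP1 type is the abundant form in vegetative and expanding tissue in Arabidopsis, where TIP1-3 is known from pollen.

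All 4 TIP1 members had more mRNA in boron fruit, and the TIP-type gene with no stated subgroup had less. In aquaporin TIP1-1-like (LOC103941273), by far the most abundant member, boron libraries had 7.04 times the control level with the authors' size factors, and 2.59 or 2.68 times with TMM or median-of-ratios scaling over the listed genes. The 3 members named for TIP1-3 had larger fitted changes, and for 2 of them the control libraries held 2 reads or none. In bulk pulp, more or fewer cells of a type and more or less mRNA per cell cannot be told apart. Of the 5 members, 4 passed the limma test as higher and 1 as lower in boron fruit (Benjamini-Hochberg adjusted p under 0.05 over all 4291 listed genes). In the same test 73.0% of listed genes passed as higher, 26.2% as lower and 99.2% in either direction. The authors had listed only genes that they called different on these same libraries, so that all 5 passed says nothing particular about TIPs. The groups did not overlap in any member, nor in 97.7% of listed genes. Whether each library was made from other fruit or another tree is not stated in the labels, and p-values therefore measure a spread between libraries that may be technical.

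Values are normalized counts, that is gene read counts divided by 1 size factor per library, and means carry the SD over n = 3 libraries. TIP1-1-like had 24396, 25230 and 20560 normalized counts in boron libraries 1 to 3. Its control libraries had 3209, 3324 and 3442. The lowest boron library was thus far above the highest control library, and the boron libraries were the more widely spread. The means were 23395 ± 2491 against 3325 ± 117, with a log2 fold change of 2.81 ± 0.07 (SE; limma, adjusted p = 2.94e-10). Variation between boron libraries was 10.6% of the mean, where counting alone would give 0.636%. Of all listed reads this gene took 1.25% ± 0.143 in the boron group and 0.163% ± 0.00466 in the control group. Scaled to gene length, it ranked 8 among the listed genes in boron pulp and 82 in control pulp.

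**Figure D1:**
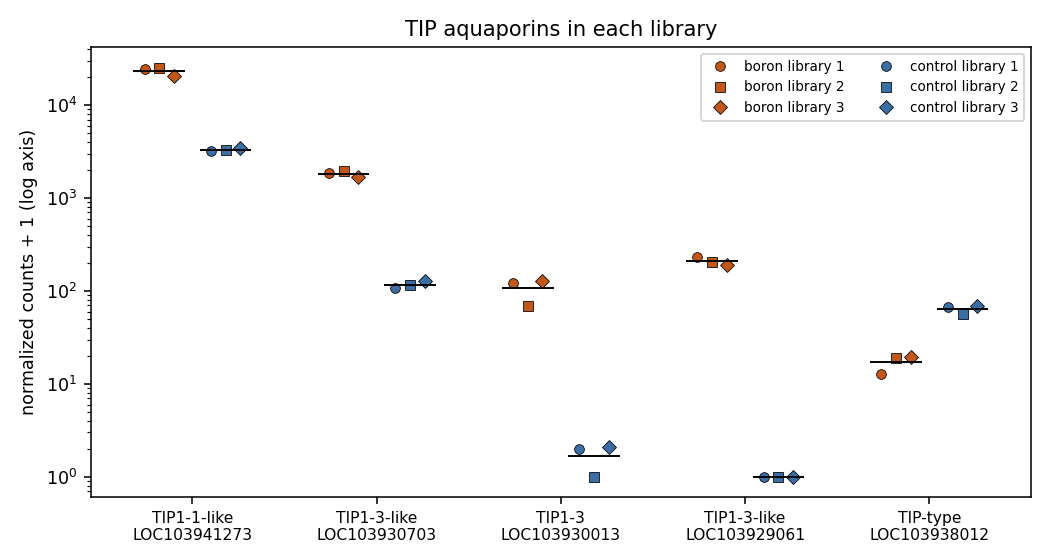
Normalized counts plus 1 (log axis) of the 5 TIP genes in each of the 6 libraries, boron in orange and control in blue, with symbols for library 1, 2 and 3 and a line at the group mean. The groups are apart in all 5 genes, boron is the higher group in 4 of them, and LOC103929061 lies at 0 counts in all 3 control libraries.

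The 3 members named for TIP1-3 started from different levels. LOC103930703, a TIP1-3-like gene, had 1856, 1973 and 1665 normalized counts in boron libraries and 106, 114 and 126 in control libraries. Every boron library was over 10 times as high as any control library. Its log2 fold change was 3.98 ± 0.11 (limma, adjusted p = 3.7e-10), from 116 ± 10.4 to 1831 ± 155, a 15.9-fold difference (5.84-fold with TMM and 6.03-fold with median-of-ratios scaling).

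LOC103929061, another TIP1-3-like gene, had 232, 204 and 190 normalized counts in boron libraries and no read in any control library. Against a limit of 3 reads over the control group, it was at least 201-fold higher (209 ± 21.0), a bound that covers counting error only and holds at the authors' size factors. With TMM and median-of-ratios scaling the same bound was 74.0-fold and 76.4-fold. The fitted log2 fold change, 7.71 ± 0.39 (limma, adjusted p = 2.14e-08), depends on the pseudocount of 1 and is no bound. In the authors' deposited table the log2 fold change is 10.09. The gene model is short, 459 bases of transcript on a span of 542 bases, where the other members have 984 to 1204 bases.

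Aquaporin TIP1-3 (LOC103930013) had 121, 68.5 and 127 normalized counts in boron libraries and 0.997, 0 and 1.08 in control libraries. The control values are 2 reads in all, 1 each in libraries 1 and 3. The ratio of 151 had an exact 95% counting interval of 41.4 to 1251. With TMM scaling the ratio of the means was 55.9 and with median-of-ratios scaling 57.9, and at the authors' size factors the log2 fold change was 5.998 ± 0.48 (limma, adjusted p = 8.12e-07). Boron library 2 was low for this gene, with 76 reads against 125 and 129, although the same library was the highest of the boron group for TIP1-1-like and for LOC103930703. Variation between the boron libraries was 30.4% of the mean, against 9.53% from counting, the widest relative spread among the members in the boron group.

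The remaining member, LOC103938012, is described as a probable TIP-type aquaporin with no subgroup. It went the other way, with 11.6, 18.03 and 18.6 normalized counts in boron libraries and 65.8, 56.2 and 68.0 in control libraries. The groups were apart, but the gene was low throughout, with 51 reads in the boron group and 183 in the control group. From 63.4 ± 6.29 to 16.1 ± 3.89 it fell by 1.93 ± 0.30 on the log2 scale (limma, adjusted p = 0.00011), which makes the control level 3.93 times the boron level (10.7 times with TMM and 10.3 times with median-of-ratios scaling). Its spread of 24.1% in boron libraries was close to the 24.3% that counting alone gives.

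Because the members differ in length, their levels were compared as normalized counts per kilobase of gene length. In boron pulp the order was TIP1-1-like (20540 ± 2187), LOC103930703 (1861 ± 158), LOC103929061 (454 ± 45.9), LOC103930013 (96.5 ± 29.4) and LOC103938012 (13.4 ± 3.23). No neighbours in that order overlapped in their library values. In control pulp TIP1-1-like (2919 ± 103) and LOC103930703 (117 ± 10.5) again came first. LOC103938012 was the third there at 52.6 ± 5.23 and the last in boron pulp. The remaining pair, LOC103930013 (0.634 ± 0.550) and LOC103929061 (0 in every library), was at the bottom in control pulp and did not differ beyond the spread.

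**Figure D2:**
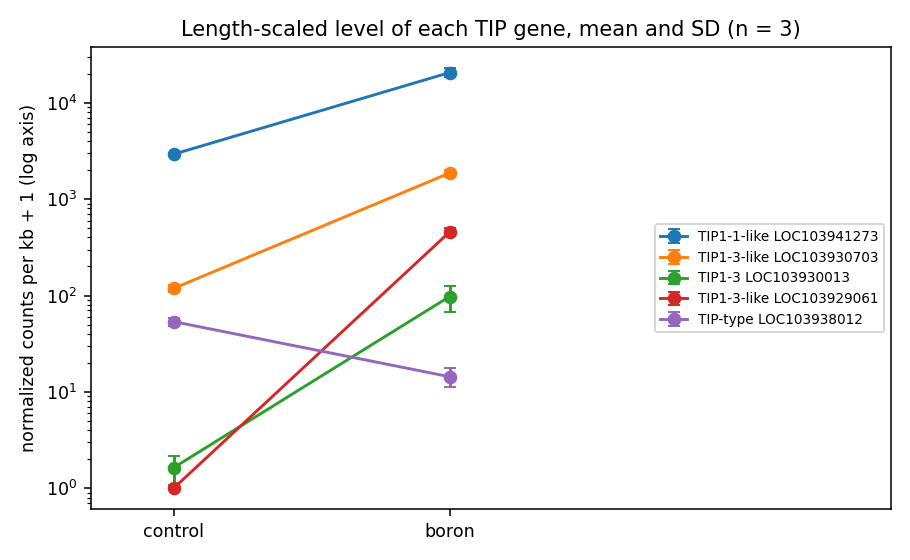
Mean length-scaled level (normalized counts per kilobase plus 1, log axis) of each TIP gene in control and boron pulp, with bars for the SD over 3 libraries. The lines of LOC103929061 and LOC103930013 start near the bottom of the axis and cross that of LOC103938012, which goes down from 52.6 to 13.4 normalized counts per kilobase.

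The length-scaled levels of the 5 members summed to 23931, 24677 and 20289 in boron libraries and to 2980, 3082 and 3208 in control libraries. The sums were apart between the groups, and the mean of 22966 ± 2348 was 7.43 times the control mean of 3090 ± 114 (two-sided exact permutation test, p = 0.1, the smallest that 3 against 3 libraries can give). The size of this ratio depends on the scaling, and was 2.74 with TMM and 2.83 with median-of-ratios size factors computed over the listed genes. The authors had listed these genes as different on the same libraries, and the most abundant member makes up most of the sum in every library. That the sums were apart, and the p-value with it, therefore follows from the choice of genes. It mostly restates the change of that member and is no separate test of the TIP level.

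TIP1-1-like made up 94.5% ± 0.256 of the summed level in control libraries and 89.4% ± 0.407 in boron libraries. LOC103930703 had 3.79% ± 0.2001 in control and 8.12% ± 0.230 in boron libraries, and LOC103929061 had 0% and 1.98% ± 0.164. LOC103938012 went from 1.70% ± 0.167 of the sum in control to 0.0591% ± 0.0180 in boron libraries. These shares do not depend on the scaling of libraries, but they depend on length. Without length scaling the short LOC103929061 had 0.818% ± 0.0683 of the sum in boron libraries, and TIP1-1-like had 94.9% in control and 91.5% in boron libraries. None of the 5 shares overlapped between groups, and each gave an exact permutation p of 0.1, the smallest possible (0.1 adjusted over the 5 shares). The shares add up to the whole, so they are not 5 separate results. For LOC103929061, with no control read, and LOC103938012, the member that fell, the separation follows from the choice of genes.

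The size of the change was also compared between members. The log2 ratio of TIP1-1-like to LOC103930703 was 3.67 ± 0.05 in boron and 4.84 ± 0.08 in control libraries, so that the log2 fold change of the first minus that of the second was -1.17. For LOC103930013 against LOC103929061 the log2 ratio was -1.02 ± 0.49 in boron and 0.68 ± 0.59 in control libraries, where both genes were at or near 0 reads. In all 10 pairs of members the log2 ratios of the groups did not overlap with a pseudocount of 1 (exact permutation p = 0.1 each, 0.1 adjusted over the 10 pairs, the smallest possible). Such a p-value cannot come under the threshold of 0.05. Pairs of LOC103938012, listed as lower, with members listed as higher separate through the choice of genes. In pairs with LOC103929061 or LOC103930013 the control ratio depends on the pseudocount. With a pseudocount of 5 the difference between LOC103930703 and LOC103930013 shrank from -2.02 to -0.31 (exact permutation, adjusted p = 0.4), which did not keep the groups apart.

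Listed TIP rows outside the 5 were higher in boron pulp as well. A further TIP1-3-like gene (LOC103948949) had 196 ± 22.2 normalized counts against 2.73 ± 2.03 in control, and its log2 fold change was 5.86 ± 0.41 (limma, adjusted p = 2.75e-07). Aquaporin TIP2-1 (LOC103944840), of a type known in Arabidopsis to pass ammonia, rose from 3.81 ± 1.21 to 41.2 ± 5.51 (limma, adjusted p = 3.31e-05). With these, 6 of 7 listed TIP rows rose and 1 fell, also with TMM and median-of-ratios scaling. Among all 4291 listed genes 73.0% rose, and 1433 genes did with TMM and 1486 with median-of-ratios scaling. No listed row was described as TIP3, the seed type, or as TIP4 or TIP5, which does not bear on TIP genes outside the list. Values of the 4 rows named for TIP1-3 are uncertain one by one, since copies this alike in name may share or split their reads. No member overlapped another listed gene on its scaffold.

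The plasma membrane aquaporins (PIPs), which set the water permeability of the outer cell membrane, had 10 listed rows and all 10 rose. With TMM scaling 5 of them passed, and with median-of-ratios scaling 6, all as higher. Their log2 fold changes ran from 1.29 to 3.74, and those of the TIP rows from -1.93 to 7.71. The most abundant PIP row, PIP1-4 (LOC103936441), rose from 5913 ± 604 to 18141 ± 1484, a call that TMM scaling ended (adjusted p = 0.0905). The largest PIP change was that of a PIP2-5 row (LOC103934822), from 4.82 ± 1.51 to 75.1 ± 8.40. The 1 row of the other types, SIP1-1-like (LOC103944545), an aquaporin type of inner membranes, rose from 2 to 35 reads over the 3 libraries of a group, a ratio of 16.0 with an exact 95% counting interval of 4.11 to 137. Of all 18 aquaporin rows 17 rose (12 with TMM and 13 with median-of-ratios scaling), and LOC103938012 was the one that fell under each of these scalings. Among all 4291 listed genes 73.0% passed as higher, and 1433 genes did with TMM and 1486 with median-of-ratios scaling. The median log2 fold change was 2.77 over the aquaporin rows, 3.98 over the 5 members and 1.62 over all listed genes.

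**Figure D3:**
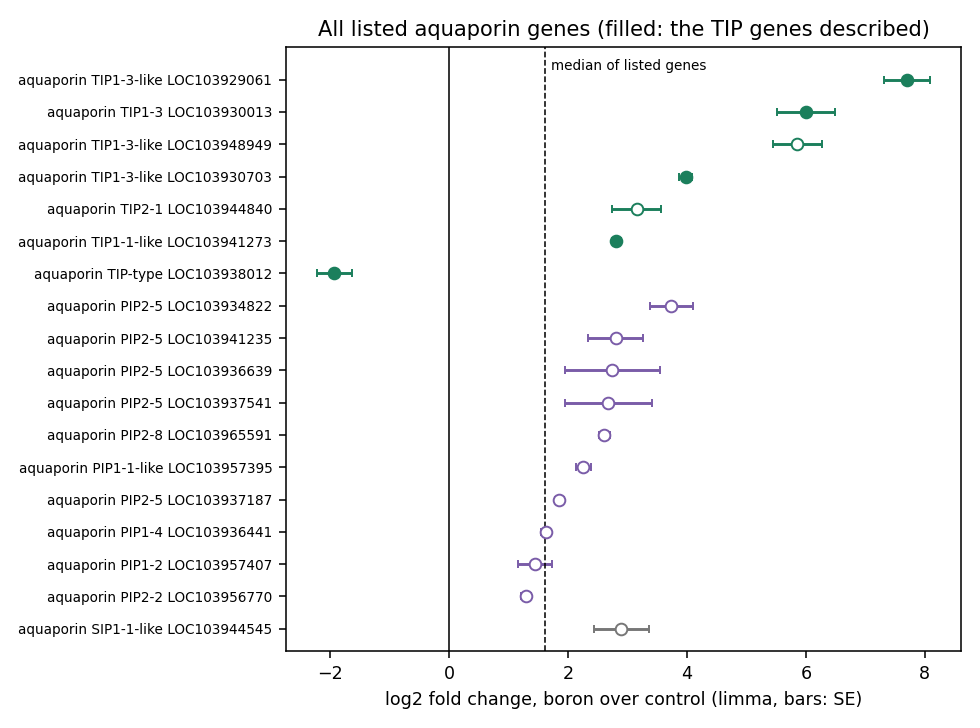
Log2 fold change (boron over control, limma, bars for SE) of the 18 listed aquaporin genes, TIP in green, PIP in purple and SIP in grey, with the 5 members filled and a dashed line at the median of all listed genes (1.62). The 3 highest points are TIP1-3 rows, LOC103938012 at -1.93 is the lone point below 0, and the value of LOC103929061, with no control reads, depends on the pseudocount.

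Other rows, drawn by description as vacuolar proton pumps or carriers, did not share one direction. In which membrane each of these proteins lies was not tested. Of 4 listed rows for vacuolar proton pumps, which energize transport into the vacuole, 3 fell and 1 rose, under TMM and median-of-ratios scaling too. Among all listed genes 26.2% fell and 73.0% rose. V-type proton ATPase subunit E (LOC103928880), the most abundant, fell from 16910 ± 676 to 7402 ± 365, with -1.19 ± 0.05 as its log2 fold change (limma, adjusted p = 1.07e-08). Subunit a1-like (LOC103943774) fell from 760 ± 109 to 152 ± 41.8. The row that rose was a vacuolar pyrophosphatase-type proton pump (LOC103953877, named after its values were seen), with a mean of 404 against 88.5 normalized counts.

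Of 19 vacuolar membrane carriers 12 rose (63.2%, against 73.0% of all listed genes) and 7 fell. Their median log2 fold change was 1.58, close to the 1.62 of all listed genes. With TMM scaling 6 passed as higher and 7 as lower, where 1433 and 1241 of all 4291 listed genes did. A tonoplast dicarboxylate transporter-like gene (LOC103942769), whose kind carries malate into the vacuole, fell from 2798 ± 273 to 1168 ± 52.2. Another gene of the same description (LOC103943766, named after its values were seen) rose, with a mean of 2554 against 373 normalized counts. A vacuolar iron transporter homolog 4-like gene (LOC103935577) fell from 43.1 ± 8.03 to 2.23 ± 0.623. That list was drawn by description and holds exchanger families with members at other membranes. Boron transporters had 2 rows, 1 higher (a call that TMM and median-of-ratios scaling ended) and 1 lower, of which boron transporter 2 (LOC103956856) fell from 3601 ± 111 to 234 ± 28.2.

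Of 10 genes tied to water deficit 8 were higher and 2 lower (5 and 2 with TMM scaling). That split was near that of all listed genes, of which 73.0% were higher and 26.2% lower. The row with the highest mean is similar to delta-1-pyrroline-5-carboxylate synthase (LOC103942882), an enzyme of proline synthesis, and fell from 17863 ± 1276 to 1278 ± 21.6. The RD22-like BURP domain gene (LOC103962567) had the largest change of the list, from 15.5 ± 4.50 to 5060 ± 324.

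Genes whose pattern was most like that of a member were sought among 3737 other listed genes with a mean of at least 10 normalized counts. The measure was the root mean square difference of centred log2 values over the 6 libraries. Closest to TIP1-1-like were a nitrate reductase-like gene (LOC103956979, 0.0803 log2 units), a chlorophyll a-b binding protein 151-like gene (LOC103955064, 0.0833) and PHYTOCHROME KINASE SUBSTRATE 1 (LOC103950830, 0.0851). LOC103930703 lay nearest to a putative lipid-binding protein AIR1 (LOC103937926, 0.0900), the PIN-LIKES 5-like gene (LOC103959162, 0.106) and the sugar transporter SWEET17-like (LOC103964212, 0.107).

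The low genes had less close neighbours, apart from LOC103938012. Nearest to LOC103930013 were U-box protein 26 (LOC103957463, 0.412), an uncharacterized gene (LOC103934754, 0.415) and the TIP1-3-like row LOC103948949 (0.422). LOC103929061 was nearest to the RD22-like gene (LOC103962567, 0.390), a methionine gamma-lyase-like gene (LOC103950120, 0.400) and SIEVE ELEMENT OCCLUSION B-like (LOC103938158, 0.410). For LOC103938012, a sorbitol dehydrogenase-like gene (LOC103960507) differed by 0.0443 log2 units, with 117 ± 27.1 normalized counts in boron and 448 ± 36.7 in control libraries. An uncharacterized gene (LOC103942971, 0.112) and fimbrin-2-like (LOC103949583, 0.139) followed. LOC103938012 had 51 reads in the boron group, and counting alone gives it a spread of 24.3% of the mean there. How close its neighbours are, and their order, is therefore uncertain. With 6 libraries in 2 groups, likeness mostly reflects the size of the group difference.

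Most listed vascular and peel markers were higher in boron libraries, as were 73.0% of all listed genes. With TMM scaling 1433 of all 4291 listed genes passed as higher. Of 9 listed vascular markers 9 rose (4 with TMM scaling), and their summed level was 653 to 733 normalized counts in boron libraries and 153 to 180 in control libraries. One of them is SIEVE ELEMENT OCCLUSION B-like, a gene of phloem sieve elements, with 241 ± 11.4 against 1.04 ± 0.0415 normalized counts. Of 13 peel markers 12 rose (9 with TMM scaling) and 1 fell, with sums of 3074 to 3524 in boron and 1255 to 1467 in control libraries. Of 7 seed markers 5 rose (3 with TMM scaling) and 2 fell, a share of rises (71.4%) near that of all listed genes, and their sum was the lower in boron libraries, at 1905 to 2044 against 2320 to 2600. The seed and water-deficit lists both used the description late embryogenesis abundant, so they can share rows. No marker was at 0 in all libraries of a group. Their part in the TIP results was not tested. The list holds called genes only, so markers of pulp that did not differ are not seen.

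A second deposited table gives 1 score for each of 42194 genes and so places the members beyond the listed genes. The score rests on the same 6 libraries and is no separate evidence. For the 4070 listed genes with both group means above 0, the score was rebuilt by 1 rule. It divides the boron mean minus the control mean by the added SDs of both groups. An SD there counts as at least 0.2 of its mean. A steady gene with a large ratio therefore nears 5. LOC103929061 had a score of 4.85, rank 10 from the top, and LOC103930703 had 4.41, rank 102. With a control mean of 0, LOC103929061 is outside the genes that the rule was rebuilt for, and how its score was set is not known here. TIP1-1-like scored 3.76 (rank 343) and LOC103930013, with its wider spread, 3.21 (rank 671). LOC103938012 scored -2.85, rank 248 from the bottom. A score above 0 was given to 16512 genes, one below 0 to 14072 and a score of 0 to 11610.

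**Figure D4:**
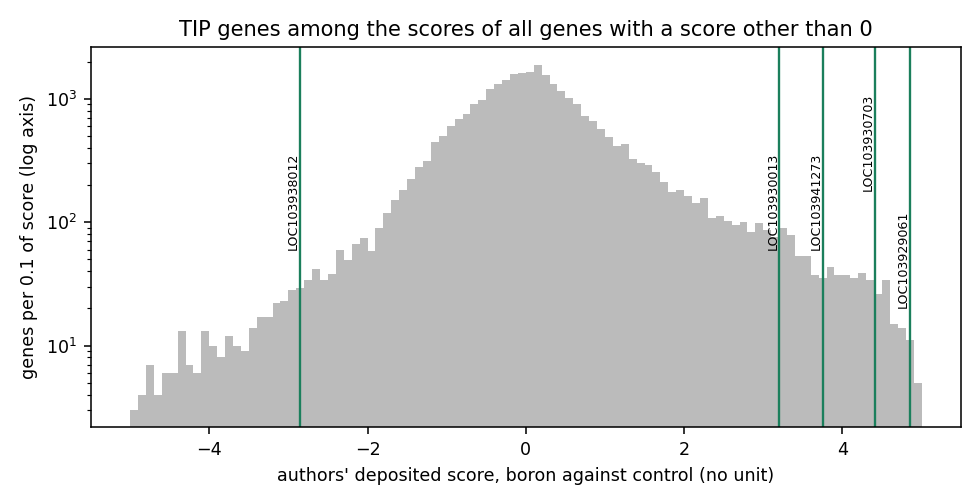
Histogram (log axis) of the authors' deposited score over all genes with a score other than 0, in steps of 0.1, with lines at the 5 TIP genes. The 4 TIP1 genes lie between 3.21 and 4.85 in the right tail, and LOC103938012 lies at -2.85 in the left tail.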

How the data were processed

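Messenger RNA of pear pulp was sequenced in 3 boron and 3 control libraries, grouped by the labels. HISAT2, an aligner, is named without a version, per the submitters' processing notes. How reads were counted, whether strand was used, which genome build was used and how the authors tested genes is not given in the sources used here. The authors deposited a signal for each library, namely each gene's read count over that library's size factor. All values were whole multiples of 1 step per library within 1e-04, and so gave back the reads (100% of values). Listed reads per library numbered 1914312 to 2056668, the only depth the tables give. The deposited p-value and log2 fold change, per the file headers, compare boron with control, with an absolute log2 fold change of 1.00 or more and an adjusted p-value of up to 0.0499. The authors' score in the second table was rebuilt within 1e-05 for all 4070 listed genes with both group means above 0. Gene length and scaffold positions, which are values of other kinds, are as deposited.

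Groups were compared with limma 3.58.1 under R 4.3.3, with its trend and robust options, two-sided, on log2(normalized count + 1) with p-values adjusted by Benjamini-Hochberg over the 4291 listed genes. It was checked on simulated counts in which most genes were unchanged. Nearly all listed genes differ, so that check does not cover the setting here. The design had foreseen raw counts or normalized values and the latter applied. Single values per library were compared by exact permutation (Python 3.11.15). edgeR 4.0.16 and DESeq2 1.42.0 on the recovered reads were alternatives. DESeq2 gave log2 fold changes of 2.81 for TIP1-1-like and 10.09 for LOC103929061, the same as the authors' deposited 2.81 and 10.09. It is therefore no check separate from the authors' own listing. The members and lists were chosen with earlier results of these data known. Named genes were the 5 members, the other TIP rows, the called row with the highest mean and that with the largest change of each context list, and the 3 genes nearest in pattern to each member. No 2 libraries of a group agreed within sampling noise (chi-square per degree of freedom 3.68 to 8.40). No protein or promoter sequence was used here.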

Additional observations from a re-analysis of the deposited data

How the results depend on the processing

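All 5 members kept their direction and passed in all 15 alternatives: 2 other pseudocounts (0.5 and 5), a mean of at least 10 normalized counts, TMM and median-of-ratios scaling, edgeR, DESeq2, limma without its trend and robust options, the replicate block, and leaving out each library. Their log2 fold changes ranged from 1.37 to 2.90 for TIP1-1-like (LOC103941273), 2.54 to 4.04 for LOC103930703, 4.24 to 7.25 for LOC103930013, 5.41 to 10.72 for LOC103929061 and -3.31 to -1.71 for LOC103938012, and the highest adjusted p was 0.000764, for LOC103938012. DESeq2 passed all 4291 listed genes. The other alternatives at the authors' size factors passed 4206 to 4258 of them, and 3704 of 3738 with the filter on the mean. Passing in those alternatives therefore follows from the choice of genes and says nothing particular about TIPs. The listed genes that passed numbered 4257 in the main test, but 2674 with TMM scaling (1433 higher, 1241 lower) and 2702 with median-of-ratios scaling (1486 higher, 1216 lower). Both take most of the listed genes, all of them called, to be unchanged, and moved the median log2 fold change by -1.40 and -1.35. Relative to that median TIP1-1-like was at 1.19, and at 1.15 under either scaling. Same-numbered libraries did not deviate together (correlations -0.0133, 0.0256 and -0.0389), and whether the numbers pair the libraries is not stated in the labels. The replicate block passed 4258 genes and all 5 members. For the summed TIP level it gave p = 0.25 (exact permutation within same-numbered pairs), the smallest for 3 pairs. That value, too, follows from the choice of genes. Depth limits the control values of LOC103930013 and LOC103929061 and both groups of LOC103938012.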

Other observations

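The TIP genes lie on separate scaffolds of the deposited table. TIP1-1-like (LOC103941273, scaffold NW_008989292.1, 22851 to 24091, plus strand) has no other listed gene on its scaffold. LOC103930703 lies on NW_008988521.1 from 44608 to 46217 (plus strand), and its nearest listed gene, a methyl-CpG-binding domain protein 7-like gene, is 45452 bases away. For LOC103930013 (NW_008988498.1, 165630 to 167207, plus strand) the nearest listed gene is a photosynthetic NDH subunit 7565 bases away, with a log2 fold change of 2.26. LOC103929061 (NW_008988471.1, 329699 to 330240, minus strand) is 24886 bases from a listed gene that went the other way, with a log2 fold change of -1.17. The nearest listed gene to LOC103938012 (NW_008988938.1, 112169 to 114208, minus strand) is 39140 bases away and has a log2 fold change of -1.08.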
